A study of Mus musculus with 12 samples.

Results

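The 35 genes described here act in mitosis and at the G2/M transition, the step at which a cell that has copied its DNA starts to divide. They are mitotic cyclins and kinases, kinesin motors, spindle checkpoint proteins and centromere proteins, and they were taken by symbol from the deposited gene counts. All 35 were found among 54351 genes, and all 35 were among the 20897 genes that passed a filter on low counts. Polyadenylated RNA of 12 mouse libraries in 4 groups of 3 was sequenced, all from the C57BL/6 strain. LN3 thymus and LN3 spleen were leukaemic cells (T-ALL, acute leukaemia of immature T cells) of overtly sick mice of genotype LN3 tg, obtained by mechanical dissociation of the organ. WT thymus was total thymocytes, and WT CD8 was splenocytes after negative enrichment of CD8 T cells (purity 85 to 95% per the labels). Both came from tumour-free wild-type C57BL/6J mice. The transgene promoters, the ages and any drug treatment are not given in the labels, and no sorting of the LN3 cells is stated. LN3 thymus and LN3 spleen libraries carry the same tumour numbers, but whether equal numbers mean the same mouse, or whether each library is a mouse of its own, is not stated, and p-values therefore cover no more than the variation among these samples, part of which may be technical. RNA levels of whole samples are described throughout, in which fewer cells of a type and less RNA per cell cannot be told apart.

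A cell enters mitosis when cyclin B and CDK1 form an active kinase, which CDC25 phosphatases switch on. Aurora and Polo kinases then build the spindle, the checkpoint holds the cell until every chromosome is attached, and the anaphase-promoting complex with its cofactor CDC20 ends mitosis by destroying cyclin B and securin. Most of these genes are transcribed late in the cell cycle and are low in resting cells. Their promoters often carry a CHR element (cell cycle genes homology region), to which the DREAM complex binds in resting cells and MuvB with B-MYB and FOXM1 in dividing cells, and CCAAT boxes, which NF-Y binds. Immature thymocytes divide in bursts during T-cell development, whereas naive CD8 T cells of the spleen are largely resting.

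Promoter sequences are shown because all of these genes but Cdc25b were called higher in leukaemic than in normal spleen cells, as described below. RefSeq windows on GRCm38.p6, from 250 bases before to 50 after the gene start, were at hand for 29 of the 35 genes. Those of Ccna2, Cdc25c, Aurkb, Tpx2, Kif20a and Foxm1 were not used here. The CHR was searched on both strands as the letters TTTGAA and as its common variant with the letters TTTAAA. Within 100 bases before to 50 after the start, it stood in 21 of 29 windows (72.4%), against 14.7% of the windows of all 27025 genes. A CCAAT box, on either strand and anywhere in the 300 bases, stood in 21 of 29 (72.4%), against 41.1% of all windows. Both together were in 19 of 29 (65.5%), against 5.78% of all windows, and each motif was counted also where it overlapped another. An E2F-type site, searched on both strands as TTCCCGC and, in its other common form, as TTCGCGC, was in 2 of 29 (6.90%), against 6.86% of all windows. A MYB-type site, searched on both strands as AACGG, was in 8 of 29 (27.6%), against 19.6%. A match is a run of letters, not a measured binding site. The 160 bases from 130 before to 30 after the start are shown 5′ to 3′ on the gene's strand for 7 genes with both motifs that act in entry, as a kinase, in mitotic exit or as a motor, and for Cdc25b, whose window held a CCAAT match in reverse and no CHR match. Over the whole 300 bases a CHR match stood in 23 of 29 windows, against 30.6% of all windows. Bub1, Mad2l1, Nuf2, Nusap1 and Mybl2 had none either, and these were called higher in the leukaemic spleen. Capitals mark the letters that matched the CHR or the CCAAT box on either strand.
Ccnb1, chr13:100786457-100786616, minus strand: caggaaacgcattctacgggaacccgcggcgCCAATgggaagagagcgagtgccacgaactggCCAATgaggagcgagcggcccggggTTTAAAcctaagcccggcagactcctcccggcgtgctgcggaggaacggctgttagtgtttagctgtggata
Ccnb2, chr9:70421525-70421684, minus strand: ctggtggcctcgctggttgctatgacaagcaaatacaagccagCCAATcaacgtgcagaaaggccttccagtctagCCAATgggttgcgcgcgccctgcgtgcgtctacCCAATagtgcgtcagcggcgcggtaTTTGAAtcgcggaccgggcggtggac
Cdk1, chr10:69352883-69353042, minus strand: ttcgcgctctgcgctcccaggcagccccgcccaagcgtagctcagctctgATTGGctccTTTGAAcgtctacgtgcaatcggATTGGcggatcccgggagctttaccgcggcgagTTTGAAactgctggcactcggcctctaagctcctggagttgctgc
Plk1, chr7:122159305-122159464, plus strand: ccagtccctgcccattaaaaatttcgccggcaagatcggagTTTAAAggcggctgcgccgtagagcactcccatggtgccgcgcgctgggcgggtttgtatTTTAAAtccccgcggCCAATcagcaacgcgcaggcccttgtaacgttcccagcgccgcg
Cdc20, chr4:118437314-118437473, minus strand: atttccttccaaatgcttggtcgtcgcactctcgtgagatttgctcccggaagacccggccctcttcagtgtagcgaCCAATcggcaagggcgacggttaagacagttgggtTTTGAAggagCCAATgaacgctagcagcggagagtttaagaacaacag
Ube2c, chr2:164769799-164769958, plus strand: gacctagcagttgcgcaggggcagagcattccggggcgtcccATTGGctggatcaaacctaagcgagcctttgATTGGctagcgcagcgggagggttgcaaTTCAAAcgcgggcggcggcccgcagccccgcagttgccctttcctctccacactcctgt
Kif11, chr19:37376252-37376411, plus strand: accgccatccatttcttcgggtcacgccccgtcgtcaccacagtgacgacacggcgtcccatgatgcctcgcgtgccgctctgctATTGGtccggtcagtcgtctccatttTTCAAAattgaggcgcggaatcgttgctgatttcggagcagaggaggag
Cdc25b, chr2:131186818-131186977, plus strand: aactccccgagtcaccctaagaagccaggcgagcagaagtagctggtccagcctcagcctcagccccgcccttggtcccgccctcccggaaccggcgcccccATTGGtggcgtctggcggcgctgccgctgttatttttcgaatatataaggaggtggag

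Total counts per library lay between 12694571 and 42483898, and the lowest count of a member was 18, for Cdc25c in WT CD8 1. Values are CPM, counts divided by the library total after TMM scaling, in units that make libraries of unequal depth comparable, and a gene was called when its adjusted p over all 20897 genes was below 0.05 in edgeR's quasi-likelihood test. T-cell markers were present in all groups, with counts for all 10 of 10 genes in each group, and their sum was 2144 to 3369 CPM in WT CD8 and 3408 CPM or more in every other library. Markers of double-positive thymocytes summed to 1275 to 2534 CPM in LN3 thymus and 1177 to 1437 CPM in LN3 spleen, against 9170 to 13392 CPM in WT thymus. The sum was 1097 to 1745 CPM in WT CD8, where Cd8a, a gene of this list, stood at 645, 766 and 1035 CPM. It is therefore no specific measure of double-positive cells. The third WT thymus library stood apart: its log2 level rose with a gene's GC content by 0.988 per 10 percentage points relative to the average library, against −0.449 to 0.437 in the other 11. For genes given with full values, thymic differences that it moved by more than 1.5 times are given with and without it below.

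The summed level of the 35 genes was highest in LN3 spleen, followed by LN3 thymus, WT thymus and WT CD8. The sum of their CPM was 6867, 6268 and 9949.6 in LN3 spleen and 4656, 5473 and 5548 in LN3 thymus. It was 3976, 4602 and 3143 in WT thymus and 463, 1233 and 612 in WT CD8, here and below in the order of libraries 1 to 3. In this sum every LN3 spleen library lay above those of all other groups, the lowest LN3 thymus sum was just above the highest WT thymus sum, and WT CD8 lay far below. In the mean log2 CPM of the 35 genes, which weighs them alike, LN3 spleen 2 (6.79) lay just below LN3 thymus 2 (6.80).

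**Figure D1:**
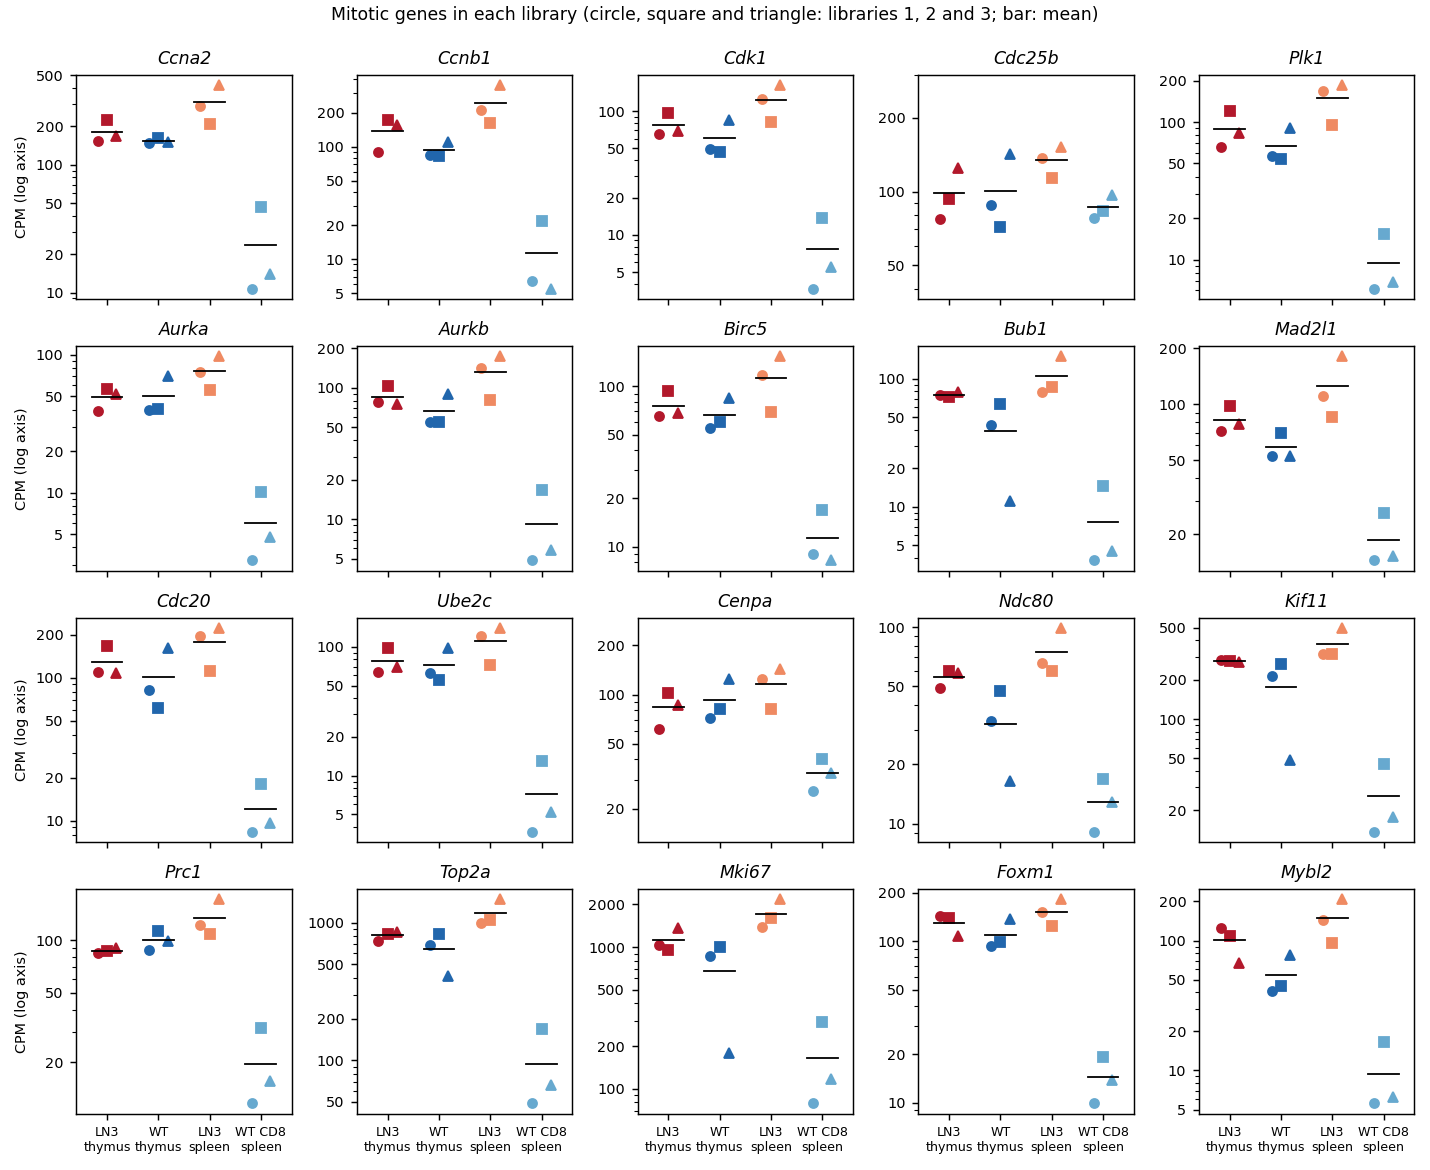
CPM of 20 mitotic genes (log axis) in the 12 libraries, in the order LN3 thymus, WT thymus, LN3 spleen and WT CD8 spleen; symbols tell libraries 1, 2 and 3 apart and bars are group means. The WT CD8 mean was the lowest in every panel, at 86.1 CPM for Cdc25b beside 98.7 CPM in LN3 thymus, and WT CD8 2 lay above the other WT CD8 libraries except for Cdc25b.

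In the thymus, the comparison of leukaemic with normal thymic cells gave no call for any of the 35 genes. Under the same test 6.06% of all genes tested were called higher and 5.21% lower. The log2 difference was above 0 for 30 of 35 genes, with a median of 0.36 and a range of −0.20 for Prc1 to 0.93 for Bub1, against a median of −0.04 over all genes tested. The standard errors ran between 0.28 and 0.63, so that differences of this size could not be told from the spread between libraries. The lowest adjusted p was 0.197, for Ndc80, the only gene of the 35 at an unadjusted p below 0.05; DESeq2 and limma also called none. All 3 LN3 thymus libraries lay above all 3 WT thymus libraries for 8 genes (22.9%), against 14.4% of all genes tested, and below them for 0, against 12.8%.

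In the spleen, LN3 cells were called higher than WT CD8 cells for 34 of 35 genes, against 17.9% of all genes tested called higher and 13% lower. The exception was Cdc25b. The median log2 difference was 3.66, against −0.11 over all genes tested, and the largest was 4.43, for Ccnb1. All 3 LN3 libraries lay above all 3 WT CD8 libraries for all 35 genes, against 27.5% of all genes tested, and below them for 0, against 30.8%. The same 34 genes were called when WT CD8 library 2, which had the highest level of 34 of the 35 genes in its group, was left out. Markers of red cell precursors were higher in LN3 spleen as well: the 13 erythroid markers measured summed to 6711, 2430 and 8150 CPM in LN3 spleen, against 224, 1022 and 120 CPM in WT CD8, with counts in all 3 libraries for 13 genes in both groups. Summed B-cell, myeloid and dendritic cell markers overlapped between these groups. They were highest in library 1 of LN3 spleen, at 2272, 1653 and 1500 CPM. The part of erythroid or other cells in the mitotic levels was not tested.

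LN3 spleen was also set against WT thymus, since normal thymocytes divide. All 35 log2 differences were above 0, with a median of 0.99 against −0.07 over all genes, and 3 genes were called higher, against 11.3% of all genes tested called higher and 8.52% lower. These were Mad2l1, Ndc80 and Mybl2. The libraries of LN3 spleen lay above those of WT thymus for 20 genes (57.1%), against 18.4% of all genes tested, and below them for 0, against 16.4%. The count was 0 without LN3 spleen 3 or without WT thymus 1, 1 without LN3 spleen 1, 6 without WT thymus 3, 5 without WT CD8 1 and 13 without WT CD8 2, the last a group that enters only through the shared estimate of spread. It was 11 with DESeq2 and 9 with limma, so the number of genes called rests on single libraries and on the test.

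**Figure D2:**
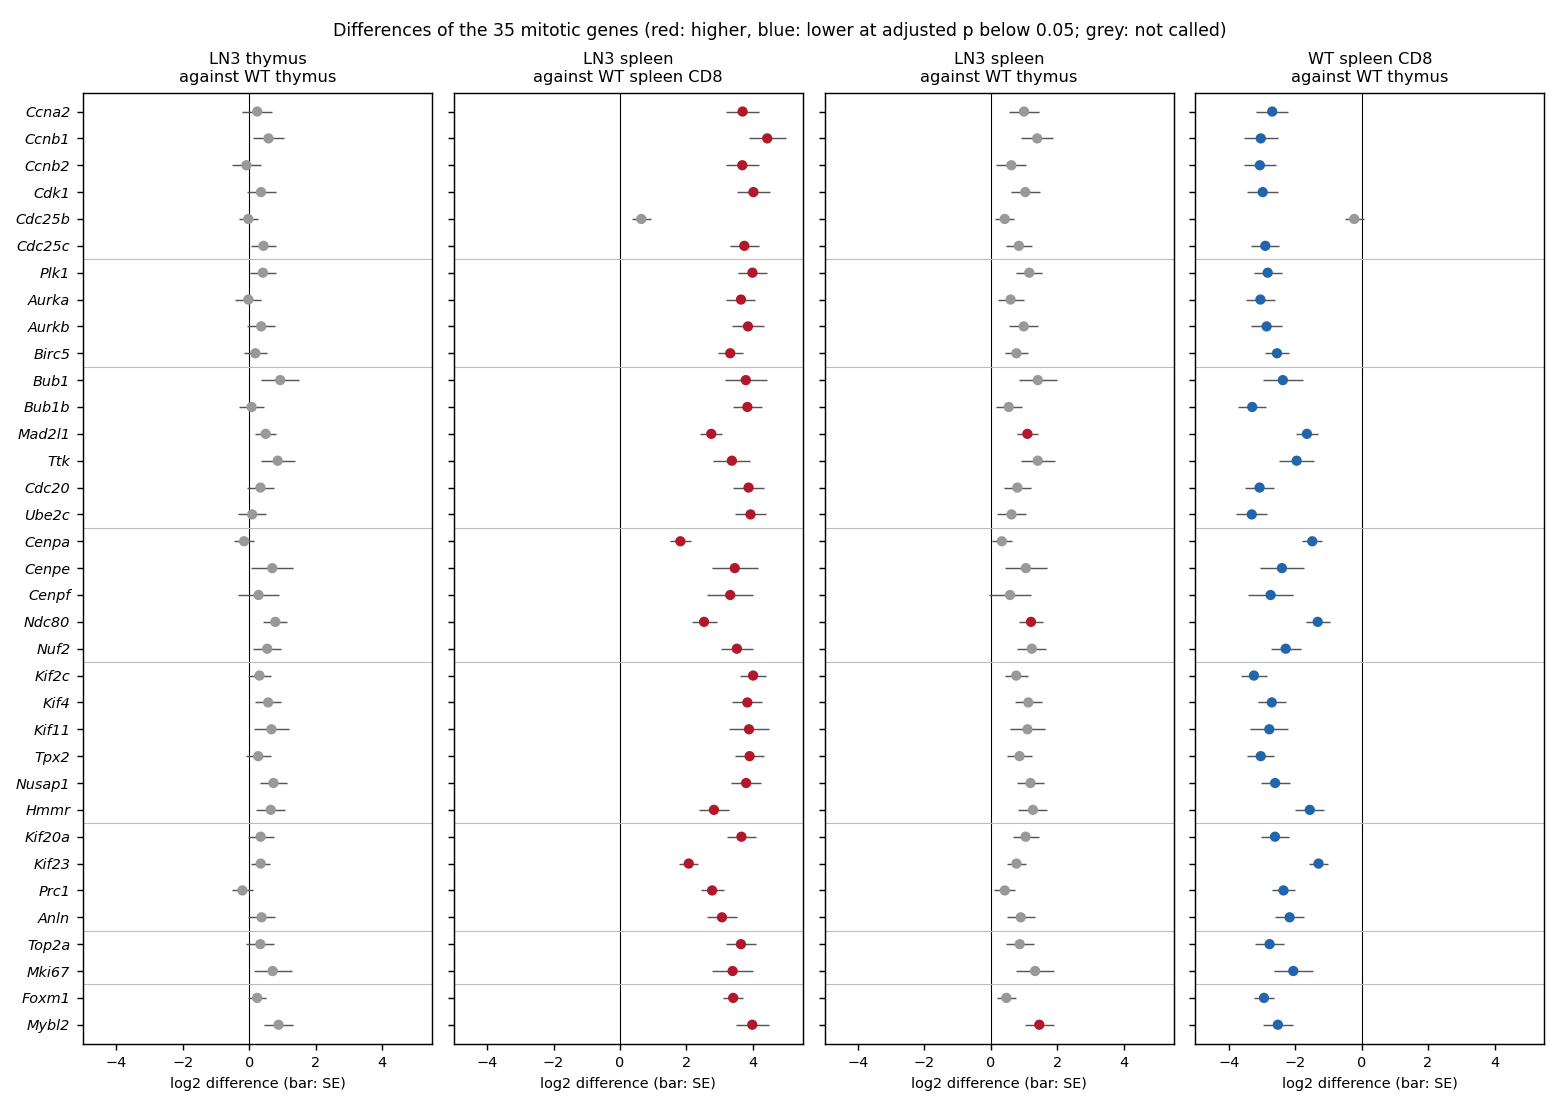
Log2 differences with standard errors of the 35 mitotic genes, ordered by role, in 4 comparisons. All points of LN3 spleen against WT spleen CD8 but Cdc25b were called higher (range 0.64 to 4.43), those of LN3 thymus against WT thymus scattered around 0.36 with no call, and WT spleen CD8 lay below WT thymus for all 35 genes.

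The genes that start mitosis came first in the order of events. Ccnb1, cyclin B1, the regulatory subunit of the kinase that drives entry, stood at 89.7, 171 and 156 CPM in LN3 thymus, against 85.0, 82.6 and 111 CPM in WT thymus. Its levels were 213, 164 and 356 CPM in LN3 spleen, against 6.45, 22.1 and 5.45 CPM in WT CD8. The thymic groups overlapped and the splenic ones did not: the splenic difference was 21.6-fold (log2 difference 4.43, SE 0.55, adjusted p = 0.000141), while the thymic one was 0.58 (SE 0.48, adjusted p = 0.507). Cdk1, the catalytic partner of cyclin B, was at 65.1, 97.0 and 69.5 CPM in LN3 thymus, against 49.1, 46.5 and 85.1 CPM in WT thymus, and at 126, 81.5 and 163 CPM in LN3 spleen, against 3.66, 13.7 and 5.47 CPM in WT CD8. Its splenic difference was 16.2-fold (log2 difference 4.02, SE 0.49, adjusted p = 0.000128), and its thymic libraries overlapped. Ccna2, cyclin A2, which acts in S phase and G2, was at 153, 224 and 168 CPM in LN3 thymus, against 147, 163 and 151 CPM in WT thymus, and at 289, 209 and 423 CPM in LN3 spleen, against 10.7, 46.5 and 14.0 CPM in WT CD8. It was 12.9-fold higher in LN3 spleen than in WT CD8 (log2 difference 3.69, SE 0.51, adjusted p = 0.000276). Ccnb2, cyclin B2, and Cdc25c, a CDK1-activating phosphatase, were also called in the spleen, with log2 differences of 3.68 and 3.74.

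Cdc25b, another phosphatase of CDK1, did not share this pattern. It was at 77.2, 93.6 and 125 CPM in LN3 thymus, against 87.8, 71.7 and 142 CPM in WT thymus, and at 137, 114 and 153 CPM in LN3 spleen, against 77.9, 83.6 and 97.0 CPM in WT CD8. The WT CD8 libraries thus overlapped both thymic groups, and all 3 LN3 spleen libraries lay above all 3 WT CD8 libraries. The splenic log2 difference was 0.64 (SE 0.28, adjusted p = 0.0967), and that of WT CD8 against WT thymus was −0.22 (SE 0.28, adjusted p = 0.668), or 0.11 without WT thymus 3. It was the only gene of the 35 for which library 2 was not the highest of the WT CD8 libraries. Without WT thymus 3, or with the groups compared fitted alone, the splenic difference was called, so that all 35 genes were.

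Among the mitotic kinases, Plk1, the Polo kinase of spindle assembly and cytokinesis, was at 66.0, 119.8 and 83.1 CPM in LN3 thymus, against 57.1, 54.3 and 90.4 CPM in WT thymus. In the spleen it was at 168, 95.5 and 187 CPM in LN3 cells, against 6.12, 15.4 and 6.83 CPM in WT CD8, a 15.8-fold difference (log2 difference 3.99, SE 0.44, adjusted p = 7e-05). Aurka, Aurora kinase A of the spindle poles, was at 39.3, 57.0 and 52.4 CPM in LN3 thymus, against 40.1, 40.2 and 70.9 CPM in WT thymus, and at 75.2, 55.4 and 97.8 CPM in LN3 spleen, against 3.22, 10.2 and 4.79 CPM in WT CD8. Its thymic log2 difference was −0.02 (SE 0.39), and its splenic one 3.64 (SE 0.44, adjusted p = 0.000112). Aurkb and Birc5 encode Aurora kinase B and survivin, which work together in the chromosomal passenger complex that corrects chromosome attachment. Aurkb was at 78.6, 103 and 75.0 CPM in LN3 thymus, against 55.1, 55.0 and 89.4 CPM in WT thymus, and at 141, 81.4 and 174 CPM in LN3 spleen, against 4.86, 16.7 and 5.85 CPM in WT CD8. Birc5 was at 65.2, 93.2 and 68.4 CPM in LN3 thymus, against 54.7, 59.4 and 85.0 CPM in WT thymus, and at 117, 68.8 and 154 CPM in LN3 spleen, against 8.96, 16.9 and 8.21 CPM in WT CD8. In each of these 4 kinase and passenger genes the highest WT thymus library exceeded the lowest LN3 thymus library. Both passenger genes were called in the spleen, with log2 differences of 3.85 for Aurkb (SE 0.48, adjusted p = 0.000148) and 3.32 for Birc5 (SE 0.38, adjusted p = 8.97e-05).

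Of the 8 genes whose thymic groups did not overlap, 3 belong to the spindle checkpoint, Mad2l1, Bub1 and Ttk. Mad2l1, MAD2, the checkpoint protein that holds back CDC20, was at 72.1, 97.5 and 78.2 CPM in LN3 thymus, against 52.6, 70.1 and 52.8 CPM in WT thymus. Its splenic levels were 110.2, 85.5 and 181 CPM in LN3 cells, against 14.5, 26.2 and 15.3 CPM in WT CD8. The LN3 libraries lay above the WT ones in both organs, by a log2 difference of 0.50 in the thymus (SE 0.31, adjusted p = 0.366) and of 2.75 in the spleen (SE 0.33, adjusted p = 0.000119), and LN3 spleen exceeded WT thymus by 1.10 (SE 0.32, adjusted p = 0.0296). Bub1, a kinase that recruits checkpoint proteins to the kinetochore, was at 75.2, 71.6 and 78.9 CPM in LN3 thymus, against 43.6, 63.3 and 11.1 CPM in WT thymus, and at 79.0, 86.4 and 150.0 CPM in LN3 spleen, against 3.82, 14.5 and 4.49 CPM in WT CD8. The LN3 thymus libraries agreed closely and the WT thymus libraries did not, the third being far below the others (log2 difference 0.93, SE 0.57, adjusted p = 0.354). Without that library the difference was 0.50. Ttk, the MPS1 kinase, was likewise lowest in WT thymus 3, and Bub1b, BUBR1, was highest there.

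Cdc20, the cofactor by which the anaphase-promoting complex ends mitosis, was at 110.2, 168 and 108 CPM in LN3 thymus, against 82.2, 61.4 and 162 CPM in WT thymus. In the spleen it was at 196, 111 and 224 CPM in LN3 cells, against 8.36, 18.2 and 9.72 CPM in WT CD8, a 14.6-fold difference (log2 difference 3.87, SE 0.46, adjusted p = 0.000103). Ube2c, the ubiquitin-conjugating enzyme of the same complex, was at 63.5, 97.9 and 69.5 CPM in LN3 thymus, against 62.5, 55.8 and 98.7 CPM in WT thymus, and at 122, 72.0 and 140.5 CPM in LN3 spleen, against 3.66, 13.0 and 5.19 CPM in WT CD8. WT thymus 3 was the highest thymic library for Ube2c, the opposite of its place for Bub1. Ube2c was the gene furthest below WT thymus in WT CD8, by a log2 difference of −3.31 (SE 0.47, adjusted p = 0.00059).

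At the centromere, Ndc80, a microtubule-binding subunit of the kinetochore, was at 48.8, 60.1 and 58.4 CPM in LN3 thymus, against 33.4, 47.0 and 16.4 CPM in WT thymus, and at 65.4, 59.8 and 99.0 CPM in LN3 spleen, against 9.07, 16.8 and 12.9 CPM in WT CD8. The groups did not overlap in either organ. Its thymic log2 difference was 0.79 (SE 0.36, adjusted p = 0.197), or 0.48 without WT thymus 3, its splenic one 2.53 (SE 0.38, adjusted p = 0.000487), and LN3 spleen exceeded WT thymus by 1.21 (SE 0.36, adjusted p = 0.035). Cenpa, the histone variant that marks centromeres, had a narrower range, with 61.9, 102 and 86.0 CPM in LN3 thymus, against 71.8, 81.3 and 124 CPM in WT thymus, and 125, 81.4 and 143 CPM in LN3 spleen, against 25.8, 40.1 and 33.1 CPM in WT CD8. Its splenic difference was 3.53-fold (log2 difference 1.82, SE 0.31, adjusted p = 0.0011), the smallest of the 34 called. Nuf2, the partner of Ndc80, and the large kinetochore proteins Cenpe and Cenpf were called in the spleen with log2 differences of 3.52, 3.45 and 3.32.

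Of the spindle motors, Kif11, the kinesin that pushes spindle poles apart, was at 285, 279.6 and 275 CPM in LN3 thymus, against 215, 263 and 48.9 CPM in WT thymus, and at 317, 316 and 499 CPM in LN3 spleen, against 13.7, 45.4 and 17.6 CPM in WT CD8. The LN3 thymus libraries lay close to each other and above all WT thymus libraries, and the difference of 0.67, or 0.24 without WT thymus 3, was not called (SE 0.54, adjusted p = 0.491). The splenic difference was 14.8-fold (log2 difference 3.88, SE 0.60, adjusted p = 0.00061). The other 5 motors and microtubule binders, Kif2c, Kif4, Tpx2, Nusap1 and Hmmr, were called in the spleen, with log2 differences of 4.01, 3.83, 3.90, 3.80 and 2.83. The cytokinesis genes had the smallest splenic median of the roles with more than 2 genes, 2.92. Prc1, which bundles the microtubules of the central spindle, was at 84.2, 86.4 and 90.3 CPM in LN3 thymus, against 87.8, 113 and 99.2 CPM in WT thymus, and at 122, 109 and 171 CPM in LN3 spleen, against 11.6, 31.4 and 15.7 CPM in WT CD8. It was the gene with the lowest thymic difference (log2 difference −0.20, SE 0.32, adjusted p = 0.76), while its splenic difference was 2.77 (SE 0.34, adjusted p = 0.000136). Kif20a, Kif23 and Anln, a mitotic kinesin, its relative in the central spindle and the contractile ring protein anillin, were called in the spleen with log2 differences of 3.66, 2.07 and 3.07.

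Top2a, the topoisomerase that untangles sister chromatids, was at 736, 836 and 864 CPM in LN3 thymus, against 689, 831 and 409 CPM in WT thymus, and at 991, 1050.3 and 1484 CPM in LN3 spleen, against 48.5, 168 and 66.0 CPM in WT CD8. It was 12.5-fold higher in LN3 spleen than in WT CD8 (log2 difference 3.64, SE 0.46, adjusted p = 0.000168). Mki67, Ki-67, the protein that coats mitotic chromosomes and is used to stain dividing cells, was at 1026, 960.0 and 1357 CPM in LN3 thymus, against 865, 1002 and 179.6 CPM in WT thymus. In the spleen it was at 1392, 1593 and 2169 CPM in LN3 cells, against 78.7, 296 and 117 CPM in WT CD8. WT thymus 3 was far below the others, and WT thymus 2 lay above LN3 thymus 2. The thymic difference of 0.71, or 0.27 without that library, was not called (SE 0.57, adjusted p = 0.494), and the splenic one was 10.5-fold (log2 difference 3.39, SE 0.62, adjusted p = 0.00172).

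The transcription factors of late cell cycle genes were called in the spleen as well. Foxm1, the forkhead factor of G2, was at 144, 139.6 and 107 CPM in LN3 thymus, against 94.1, 98.8 and 138 CPM in WT thymus, and at 151, 124 and 182 CPM in LN3 spleen, against 9.89, 19.3 and 13.8 CPM in WT CD8. It had the lowest adjusted p in the spleen, at 1.4e-05, with a 10.6-fold difference (log2 difference 3.41, SE 0.30). Mybl2, B-MYB, was at 125, 109 and 67.5 CPM in LN3 thymus, against 41.0, 44.8 and 77.3 CPM in WT thymus, and at 145, 96.5 and 208 CPM in LN3 spleen, against 5.57, 16.5 and 6.30 CPM in WT CD8. Its log2 difference was 0.89 in the thymus (SE 0.44, adjusted p = 0.234), 3.98 in the spleen (SE 0.49, adjusted p = 0.000132) and 1.46 for LN3 spleen against WT thymus (SE 0.44, adjusted p = 0.0367), the largest of the 35 in that comparison. The comparisons of LN3 thymus and of LN3 spleen with WT thymus share the WT thymus libraries.

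WT thymus 3 was the highest library of its group for 18 of the 35 genes and the lowest for 14. Relative to the mean of the other 2 WT thymus libraries, the 35 genes ranged between −3.32 and 1.18 on the log2 scale there, and 9 lay below −1. Cenpf was at 16.9 CPM in that library, against 141 and 203 CPM in WT thymus 1 and 2, and Cenpe at 12.7, against 95.1 and 139.6 CPM. The 17 genes with the lower transcript GC content (40.1 to 46.6%) had a median deviation of −1.27 and the 18 with the higher (47.3 to 56.3%) of 0.67. Across the 35 genes the deviation followed GC content with a Pearson r of 0.72 and log2 transcript length with one of −0.64. These are descriptions over genes of one library, in which GC content and length cannot be told apart. LN3 spleen 1 and LN3 thymus 2 had the next strongest GC rises, 0.437 and 0.375 log2 units per 10 percentage points, but no gene of the 35 deviated by more than 1 there. Without WT thymus 3 no thymic difference was called, the median thymic difference was 0.39 and 33 of 35 were above 0. Among the genes given with full values, the thymic log2 difference was then smaller for Top2a, at 0.11 without that library and 0.34 with it, as for Bub1, Ndc80, Kif11 and Mki67 above. It was larger for Cdc20 (0.85 without and 0.34 with it), Cdk1 (0.70 and 0.36), Plk1 (0.70 and 0.41), Aurkb (0.65 and 0.36), Foxm1 (0.45 and 0.24), Birc5 (0.42 and 0.19) and Ube2c (0.39 and 0.09). Those of Cdc25b, Aurka and Cenpa were below 0 with that library, at −0.03, −0.02 and −0.15, and above 0 without it, at 0.32, 0.32 and 0.13. Over all 35 genes the range was then −0.22 for Cenpf to 1.24 for Mybl2. With an offset for GC content the thymic median was 0.35, again with no call.

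**Figure D3:**
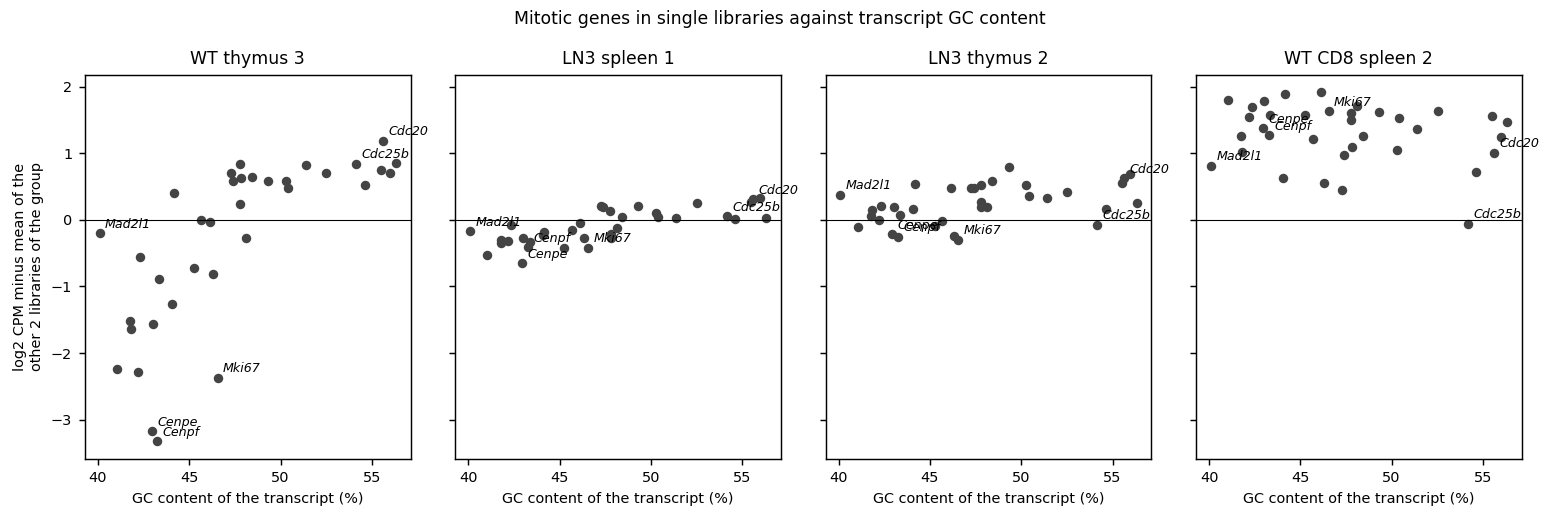
Log2 CPM of the 35 mitotic genes in 4 libraries minus the mean of the other 2 libraries of the group, against the GC content of the transcript. In WT thymus 3 genes of low GC content lay as low as −3.32 and those of high GC content up to 1.18, whereas in WT CD8 spleen 2 most genes lay above 1 whatever their GC content.

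The WT CD8 libraries differed among themselves in another way. Library 2 was above the mean of the other 2 for 34 of 35 genes, by a median ratio of 2.54, and by more than 1 log2 unit for 28 of them. Library 2 also had a summed level of 12 myeloid markers of 3136 CPM, against 1264 and 219 CPM in libraries 1 and 3, and of 13 erythroid markers of 1022 CPM, against 224 and 120 CPM. The part of these cells in the levels of mitotic genes was not tested.

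For LN3 spleen against LN3 thymus all 35 log2 differences were above 0, between 0.23 and 0.81 with a median of 0.55, and none was called (lowest adjusted p 0.659, and 0 at an unadjusted p below 0.05), also not with DESeq2 or limma. Under that test 0.694% of all genes tested were called higher and 0.0287% lower. The libraries of LN3 spleen lay above those of LN3 thymus for 13 genes (37.1%), against 6.22% of all genes tested, and below them for 0, against 5.24%. LN3 spleen 3 was the highest of its group for all 35 genes. Without it all 35 differences were still above 0, with a median of 0.31. The 13 erythroid markers summed to 2430 to 8150 CPM in LN3 spleen, against 518, 609 and 255 CPM in LN3 thymus, with counts in all 3 libraries for 13 genes in LN3 spleen and 12 in LN3 thymus, and to 106 to 4027 CPM in WT thymus. LN3 spleen 3, highest in the mitotic genes, was also highest in erythroid markers, and LN3 spleen 2, lowest for 27 of the 35, was lowest in them. Library 2 was highest in both sums in WT CD8, but no library was in LN3 thymus or WT thymus. In LN3 thymus this depended on the measure. Library 2, highest there in erythroid markers, was also highest in mean log2 CPM of the 35 genes (6.80, against 6.45 and 6.67). It was the highest LN3 thymus library for 19 of the 35. WT thymus 2 had the lowest erythroid sum of its group, 106 CPM, and the highest mitotic sum, 4602 CPM. Other markers reached higher sums in LN3 spleen than in LN3 thymus too. B-cell markers summed to 307 to 2272 CPM in LN3 spleen, against 297 to 476 CPM in LN3 thymus. Myeloid markers summed to 308 to 1653 CPM, against 53.9 to 341 CPM, and dendritic cell markers to 264 to 1500 CPM, against 99.8 to 239 CPM. The part of erythroid or other cells in these levels was not tested.

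The normal cells of both organs were also compared with each other. WT CD8 was called lower than WT thymus for 34 of 35 genes, all but Cdc25b, against 8.49% of all genes tested called lower and 7.24% higher. The median log2 difference was −2.69, and the WT CD8 libraries lay below those of WT thymus for 27 genes (77.1%), against 19% of all genes tested, and above them for 0, against 17.5%. The number called was 27 without WT thymus 2, without WT CD8 1 or without WT CD8 3, and 29 without WT thymus 1. Each time the count was 27, the genes no longer called were Bub1, Cenpe, Cenpf, Hmmr, Mki67, Ndc80 and Ttk, all lowest in WT thymus 3 among the WT thymus libraries.

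The test of whether the LN3 difference itself differed between organs, an interaction term, called 27 of 35 genes higher in the spleen comparison, against 3.29% of all genes tested called higher and 0.895% lower. The median difference of the log2 differences was 3.16, with 3.85 for Ccnb1 and 0.67 for Cdc25b at the ends. The 8 not called were Cdc25b, Bub1, Cenpe, Cenpf, Hmmr, Mki67, Ndc80 and Ttk, and all of these but Cdc25b were called without WT thymus 3. The control cells were thymocytes in the thymus and enriched CD8 T cells in the spleen, so organ and type of control cell cannot be told apart in this term.

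Further genes of mitosis, outside the 35 and listed by complex, were for the most part also higher in the leukaemic spleen. Over all genes tested 17.9% were called higher in LN3 spleen than in WT CD8 and 13% lower. Of 34 kinetochore and centromere genes, 29 were called higher in LN3 spleen than in WT CD8, led by Spc25, a subunit of the same complex as Ndc80 (log2 difference 3.95, adjusted p = 0.000111), and Cenpm (3.70). Of 29 spindle and cytokinesis genes 28 were called higher, among them Psrc1, a microtubule-binding protein (4.94, adjusted p = 1.62e-05), and Stmn1, stathmin (4.05). Of 11 passenger and checkpoint genes 9 were called higher, led by the cohesin protector Sgo1 (3.93) and Trip13 (3.73), and of 19 genes of G2/M entry control tested 17 were, led by the kinases Pbk (4.17) and Melk (4.07). The shares were smaller among condensin and cohesin genes, 11 of 19, led by Ncapg and Ncaph (3.76 and 3.71), and in the anaphase-promoting complex with securin and separase, 13 of 19, led by Espl1, separase (3.31), and the inhibitor Fbxo5 (2.37). The median log2 differences of these lists were 2.51, 2.91, 2.65, 2.78, 1.21 and 0.87 in that order, against −0.11 over all genes tested.

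In the thymus 1 of 34 kinetochore and 2 of 29 spindle genes were called higher and 1 of 11 passenger and checkpoint genes lower, against 6.06% of all genes tested called higher and 5.21% lower. Psrc1 (log2 difference 2.74, adjusted p = 0.00115) and the ciliary kinesin Kif3a (0.998, adjusted p = 0.0304) were higher among spindle genes and Zwint (0.75, adjusted p = 0.0495) among kinetochore genes. Mad1l1, the MAD1 partner of MAD2, was lower, by −1.25 (adjusted p = 0.0358), and also lower in LN3 spleen than in WT thymus, by −1.08. No condensin and cohesin, anaphase-promoting complex or G2/M entry gene was called there. In LN3 spleen against WT thymus the counts called higher were 11 of 34 for kinetochore and centromere, 3 of 11 for passenger and checkpoint, 2 of 19 for condensin and cohesin, 0 of 19 for the anaphase-promoting complex, 6 of 19 for G2/M entry and 5 of 29 for spindle and cytokinesis, against 11.3% of all genes tested. The condensin and cohesin list and the anaphase-promoting complex were below that share. Among those called were Psrc1 (2.82), the checkpoint kinase Chek1 (1.81) and Mastl (1.80), the Greatwall kinase of mitotic entry.

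The DREAM and MuvB complexes and the E2F family, which time the transcription of cell cycle genes, moved less uniformly. Of 17 genes, 12 were called higher and 1 lower in LN3 spleen against WT CD8, against 17.9% of all genes tested called higher and 13% lower. The higher ones were led by Tfdp1, a partner of E2F factors (log2 difference 2.93), and E2f3 (2.69), and the lower one was Rbl2, p130, the pocket protein of resting cells (−0.85, adjusted p = 0.0116). In the thymus 1 of the 17 was called higher, E2f3 (1.16, adjusted p = 0.0101), and 2 lower, E2f2 (−2.38, adjusted p = 0.00372) and Rbl2 (−0.96, adjusted p = 0.0145). The shares of all genes tested were 6.06% higher and 5.21% lower. In LN3 spleen against WT thymus 5 were called higher, led by Tfdp1 (1.41, adjusted p = 0.0202) and E2f3 (1.35, adjusted p = 0.00376), and 2 lower, again E2f2 (−1.57, adjusted p = 0.0209) and Rbl2 (−0.86, adjusted p = 0.0182). Over all genes tested 11.3% were called higher in that comparison and 8.52% lower.

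Genes of DNA replication were used as a second measure of cycling. All 34 S-phase genes tested were called higher in LN3 spleen than in WT CD8, against 17.9% of all genes tested. Their median log2 difference was 2.72, against 3.66 for the mitotic genes. WT CD8 differed from WT thymus by a median of −1.62 in the S-phase genes and of −2.69 in the mitotic ones. In the thymus 2 of the 34 S-phase genes were called higher, about the share of all genes tested (6.06%), with a list median of 0.63. Among them was Prim1, a primase subunit (1.19, adjusted p = 0.0119). In LN3 spleen against WT thymus 14 of the 34 were called higher, against 11.3% of all genes tested. The mean log2 CPM of the mitotic genes minus that of the S-phase genes was −0.41, −0.31 and 0.41 in LN3 thymus, against 0.23, 0.36 and −0.57 in WT thymus, and −0.17, 0.18 and −0.08 in LN3 spleen, against −1.06, −0.53 and −0.90 in WT CD8. Read across libraries only, since the genes differ in length, this balance overlapped between the thymic groups and was lower in all 3 WT CD8 libraries than in all 3 LN3 spleen libraries.

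**Figure D4:**
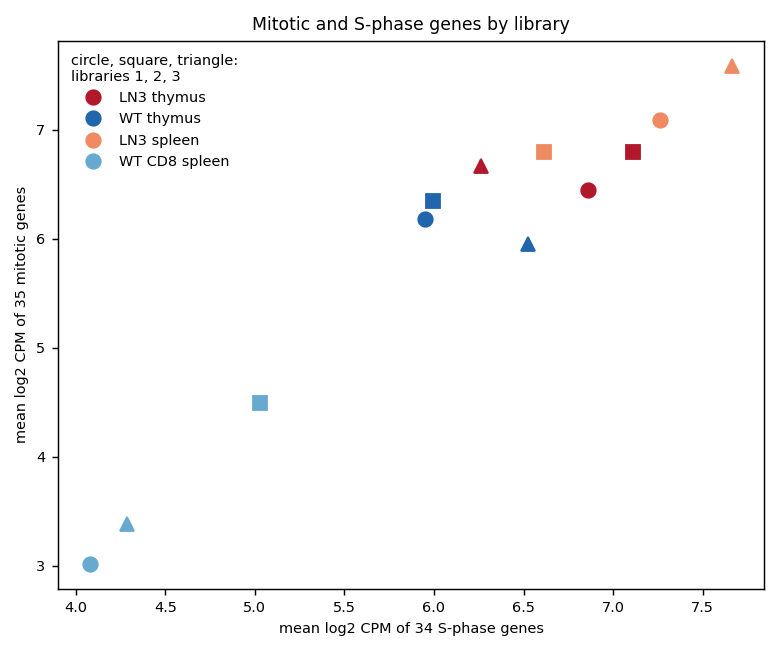
Mean log2 CPM of the 35 mitotic genes against that of 34 S-phase genes, a point per library, coloured by group and shaped by library number. WT CD8 spleen lay at the low end of both axes, LN3 spleen 3 at the high end, and WT thymus 3 lower in mitotic genes than other libraries of like S-phase level.

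The 35 genes rose and fell together over the libraries, as a description with no test. The correlation of each gene with the mean of the other members over 12 libraries was between 0.875 and 0.998 (Pearson r of log2 CPM) for 34 of them and 0.480 for Cdc25b, and it was between 0.449 and 0.991 over the 9 libraries without WT CD8, the group that stood apart. The 5 genes outside the list with the most similar pattern over the 12 libraries were Ckap2l, Cdca2, Pclaf, Spc25 and Sgo1, with r between 0.993 and 0.997. Within groups the coefficient of variation had a median of 18.2% in LN3 thymus, 30.3% in WT thymus, 31.7% in LN3 spleen and 60.7% in WT CD8.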

How the data were processed

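Polyadenylated mouse RNA was sequenced as strand-specific read pairs, per the labels. The authors deposited estimated counts per gene. The submitters' processing notes name kallisto 0.46.1, FastQC, DESeq2 and GRCm38; the annotation release and the strand setting are unknown here. Of the deposited estimated counts 100% were whole, and rounding changed none. The authors' second deposited table, variance-stabilized values on a log2 scale, served an alternative test only.

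Genes were filtered with filterByExpr and fitted in edgeR 4.0.16 (R 4.3.3) as 4 group means over 12 libraries, with TMM factors, robust dispersions, 8 residual degrees of freedom and a common biological coefficient of variation of 0.4411. P-values were Benjamini-Hochberg adjusted over 20897 genes. Alternatives were DESeq2 1.42.0, limma 3.58.1 on the variance-stabilized values, other scalings, no filter, a replicate block, single libraries left out, and, chosen after seeing the data, a GC offset, the same with the block, and a fit that dropped 3 libraries, those whose levels rose most with GC content. On simulated data for LN3 thymus against WT thymus (19910 genes), 11 of 100 genes changed by 1 log2 unit and 76 of 100 changed by 2 were called, with 2 false calls. GC content and length are of GENCODE transcripts on GRCm38.

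Members and lists were chosen with earlier results of these data known. Full values are given for 17 genes fixed by role, whatever their values, and for those with the lowest adjusted p, the largest or the smallest difference in a comparison. Of other lists the 2 called genes with the largest difference were named, and called genes against the majority; some genes that this rule takes are not reported here. All columns were assigned to a sample by name. Reads that fit several near-identical transcripts were split by kallisto's estimates.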

Additional observations from a re-analysis of the deposited data

Results flagged for a closer look

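For 27 of the 35 genes the LN3 difference in the spleen (against WT CD8) exceeded that in the thymus (against WT thymus), by a test of the difference itself, the interaction term of edgeR's quasi-likelihood test, with adjusted p between 0.00142 and 0.0351 over all genes tested. The sizes below are the splenic minus the thymic log2 difference, from 3 libraries in each of 4 groups.

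Among the genes of entry into mitosis the size was 3.45 for Ccna2, 3.85 for Ccnb1, 3.76 for Ccnb2, 3.66 for Cdk1 and 3.31 for Cdc25c. Among the mitotic kinases and passenger genes it was 3.57 for Plk1, 3.66 for Aurka, 3.49 for Aurkb and 3.13 for Birc5. For the checkpoint and exit genes it was 3.76 for Bub1b, 2.25 for Mad2l1, 3.53 for Cdc20 and 3.84 for Ube2c, and at the centromere 1.97 for Cenpa and 2.97 for Nuf2. The motors and microtubule binders gave 3.70 for Kif2c, 3.26 for Kif4, 3.21 for Kif11, 3.63 for Tpx2 and 3.06 for Nusap1. The cytokinesis genes gave 3.31 for Kif20a, 1.72 for Kif23, 2.98 for Prc1 and 2.70 for Anln. Top2a had a size of 3.30, Foxm1 of 3.16 and Mybl2 of 3.10. WT CD8 and WT thymus, the controls of the organs, themselves differed in 34 of the 35 genes, by a median log2 difference of −2.69 over the 35. LN3 spleen and LN3 thymus differed by a median of 0.55, with no call. The low level in WT CD8 thus made up the larger part of the median interaction.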

How the results depend on the processing

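For LN3 spleen against WT thymus, where 3 of 35 genes were called higher, the number was 0 with library totals and with upper-quartile factors, 5 without the low-count filter, 11 with DESeq2, 9 with limma on the variance-stabilized values and 1 with the replicate block. It was 10 with the GC offset and 10 with the GC offset and the replicate block together, and ran between 0 and 13 when single libraries were left out. The cause was not tested. The counts of the other comparisons kept their direction and stayed within 1.5 times under every alternative run: the interaction gave 20 without the 3 libraries of strongest GC rise and 34 with DESeq2, with the GC offset or without WT thymus 3. The labels number LN3 tumours alike in spleen and thymus without saying whether these are the same mice. Same-numbered LN3 spleen and LN3 thymus libraries had correlations of their deviations of −0.15, −0.51 and −0.04. Of unlike numbers, LN3 thymus 2 and LN3 spleen 1, the LN3 libraries with the strongest GC rise, had 0.44. LN3 thymus 3 and LN3 spleen 2, whose levels did not rise with GC content (−0.12 and −0.06 log2 units per 10 percentage points), had 0.41. The remaining unlike pairs of LN3 thymus and LN3 spleen ran between −0.33 and 0.14. Such correlations cannot tell whether equal numbers are pairs, and the main fit did not take them as pairs. The block gave a median of 0.58 with no call for LN3 spleen against LN3 thymus, and 25 of the 27 interaction calls and 33 of the 34 lower calls in WT CD8. Scaling by library totals moved the median of all genes to −0.24 in the thymus and −0.51 in the spleen, against −0.04 and −0.11 with TMM factors, and that of the 35 genes to 0.18 and 3.21, and to 0.56 for LN3 spleen against WT thymus; upper-quartile factors gave 0.19 in the thymus. Over the 20 genes given with full values, 2740 alternative values held 62 calls lost, 39 gained and none reversed; 26 uncalled differences near 0 changed sign, in the thymus for Aurka, Birc5, Ccna2, Cdc25b, Cenpa and Ube2c and in WT CD8 against WT thymus for Cdc25b. In the simulated data, with 3 libraries a group, 11 of 100 genes changed by 1 log2 unit were called in the thymic comparison. Far fewer genes were changed there than were called in the thymus here, so the share does not carry over directly. Zwint, for example, was called at a thymic difference of 0.75 (SE 0.22). A thymic difference of that size that was not called is not shown to be absent.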
